A study of Rattus norvegicus with 10 samples.

Results

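The cytosolic ribosomal protein genes are the protein components of the ribosome that translates mRNA outside mitochondria. They were taken by their platform symbols: Rpl or Rps with a number, at most 1 letter out of a, x and y and at most 1 further digit, together with Rplp0, Rplp1, Rplp2 and Rpsa. A gene needed a probe set that the platform annotation pairs with that gene alone, and where it had several, the brightest over the 10 arrays stood for it. This gave 43 of the 14217 genes with such a probe set, 29 of the large subunit and 14 of the small subunit. Ribosomal proteins without such a probe set, among them Rplp1 and Rplp2, are not covered, so the 43 genes are a part of each subunit. The symbols chose the genes, and the mean signal over all arrays, taken without regard to diet, chose the probe set.

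Liver RNA of 10 male Sprague-Dawley rats, labelled as 5 weeks old, was hybridised to 1 Affymetrix rat genome array per rat. The iron-deficient group (5 rats) received for 3 days a diet with about 3 ppm iron, made by leaving ferric citrate out of the control diet, and the pair-fed group (5 rats) received the control diet with 48 ppm iron in matched amounts. Every rat had been trained to daytime feeding and was killed, by the methods at a slightly younger age than the label gives, 1.5 h after feeding. The source label of the control samples also names the iron-deficient diet, while their title and treatment name the control diet, which was followed here. The question addressed is whether a short iron deficiency in the diet changed hepatic mRNA levels, here those of the ribosomal proteins. Defining hepatocyte markers such as albumin were among the brightest signals of the arrays, with a median log2 signal of 14.5 over 13 of 14 listed markers and summed signals that overlapped between the groups.

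Each ribosome holds 1 copy of most ribosomal proteins (the stalk proteins excepted), and cells make them in balanced amounts, since surplus subunits are degraded. Their mRNAs are among the most abundant in a cell. Most begin with a run of pyrimidines, called the terminal oligopyrimidine (TOP) tract, through which mTOR signalling sets how well they are translated, so translation can change while the mRNA level does not. The arrays measure the mRNA level only. In whole liver, fewer cells of a type and less RNA per cell cannot be told apart.

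The sequence around the start of transcription is shown because the TOP tract is the feature these mRNAs are best known to share, and it played no part in choosing them. A RefSeq start (assembly GRCr8) was at hand for 36 of the 43 genes, which lie on 13 chromosomes. The windows run from 15 bases before to 15 bases from the RefSeq start, on the strand of the transcript, 5′ to 3′, and capitals mark the longest unbroken run of C and T where it reached 8 bases. The first 6 windows hold such a run and the last 3 do not.
Rpl34: CCCCTTCCTTTTCCTCTTCCggggacggtg (GRCr8 chr2:221962269-221962298, minus strand)
Rps24: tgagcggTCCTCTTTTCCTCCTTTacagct (GRCr8 chr16:96502-96531, plus strand)
Rpl35: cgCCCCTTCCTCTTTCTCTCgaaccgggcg (GRCr8 chr3:43165907-43165936, minus strand)
Rpl22: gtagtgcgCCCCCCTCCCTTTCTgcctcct (GRCr8 chr5:168117946-168117975, plus strand)
Rplp0: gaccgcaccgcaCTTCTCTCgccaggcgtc (GRCr8 chr12:46718376-46718405, minus strand)
Rpl28: ccccgcccctagtgTCTTTCTTTCCgtctc (GRCr8 chr1:78083518-78083547, minus strand)
Rps6: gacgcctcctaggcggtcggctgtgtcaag (GRCr8 chr5:106420526-106420555, minus strand)
Rpl11: ggggacttgaagcttgtttggtgctgggga (GRCr8 chr5:153560788-153560817, minus strand)
Rpsa: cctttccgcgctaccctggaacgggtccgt (GRCr8 chr8:128728864-128728893, plus strand)

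A run of at least 8 pyrimidines stood in the windows of 23 of the 36 genes (63.9%), against 11.4% of the 33469 RefSeq windows of all genes and 11.2% of the 13192 windows of genes on the array. On the opposite strand, the same search found a run in 1 of the 36 genes (2.78%), which was Rpl24, and in 13% of all windows. The longest run, of 20 bases, was that of Rpl34. A match is a description of the letters and not of a working tract, and a window without a run says only that no such run lies within these 30 bases of the annotated start. Genes without a window were Rpl7, Rpl23a, Rpl27, Rpl30, Rpl37a, Rps9 and Rps29.

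The signals (log2, RMA normalized) of the ribosomal protein genes were high on every array. The mean over the 10 arrays lay between 11.40 and 13.96 for 38 of the 43 genes, termed bright members because they exceeded 10, a signal that 1990 of the 14217 genes exceeded. Over the 43 genes the median of these means was 12.61. The remaining 5 genes had means of 4.48 (Rpl28), 5.03 (Rpl30), 5.98 (Rps13), 6.35 (Rpl39) and 7.52 (Rps4y2). A signal depends on the probes as well as on the mRNA, so these values do not rank the mRNAs against each other. When genes with a mean under 6 were left out, 40 of the 43 remained.

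No ribosomal protein gene passed any test of the difference between the diets. Rank products, which ranks the differences between each iron-deficient and each pair-fed array (25 pairs) and calls genes at a false discovery rate (FDR) under 0.05, called 0 of 43 genes higher in the iron-deficient group, against 0.324% of all 14217 genes, and 0 lower, against 0.788%. The lowest FDR among the 43 genes was 0.970 for higher (Rpl28) and 0.992 for lower (Rps13). limma with Benjamini-Hochberg adjustment called 0 of them at an adjusted p under 0.05, as it did for 0% of all genes, and the lowest adjusted p was 0.768 (Rpl28). At an unadjusted limma p under 0.05 there were again 0 higher, against 2.9% of all genes, and 0 lower, against 4.94%. The 5 iron-deficient rats lay wholly above or wholly below the 5 pair-fed rats for 0 of the 43 genes, against 1.62% of all genes.

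The measured differences were small, and their intervals were narrow for the bright members. The log2 fold change (mean of the iron-deficient group minus mean of the pair-fed group) ran from -0.12 to 0.13 over the 43 genes and from -0.09 to 0.07 over the 38 bright members. Its median size without regard to sign was 0.035, against 0.069 over all genes. The 95% interval of the fold change from limma lay within 1.2-fold in either direction for 40 of the 43 genes (93.0%), against 52.6% of all genes. All 38 bright members were among the 40, with interval ends between -0.26 and 0.24 on the log2 scale. The other 3 genes, Rpl28, Rps13 and Rps4y2, have signals under 10, and their intervals reached past 1.2-fold.

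**Figure D1:**
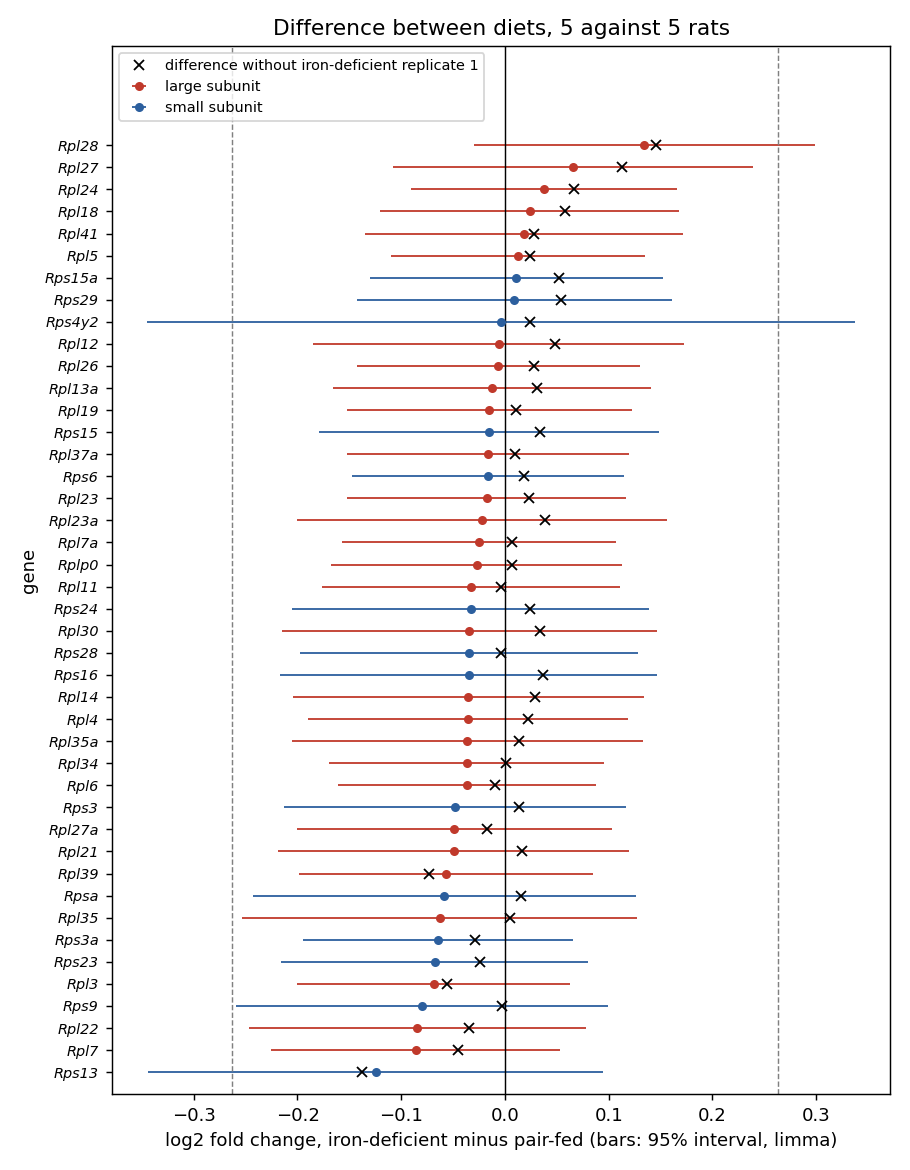
Log2 fold change of the 43 ribosomal protein genes (x axis, iron-deficient minus pair-fed; gene on the y axis), points with 95% limma intervals from 5 against 5 rats, coloured by subunit; crosses are the differences without iron-deficient replicate 1 and dashed lines mark 1.2-fold. All 43 intervals include 0, 40 lie between the dashed lines, and the crosses lie to the right of the points for most genes.

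**Figure D2:**
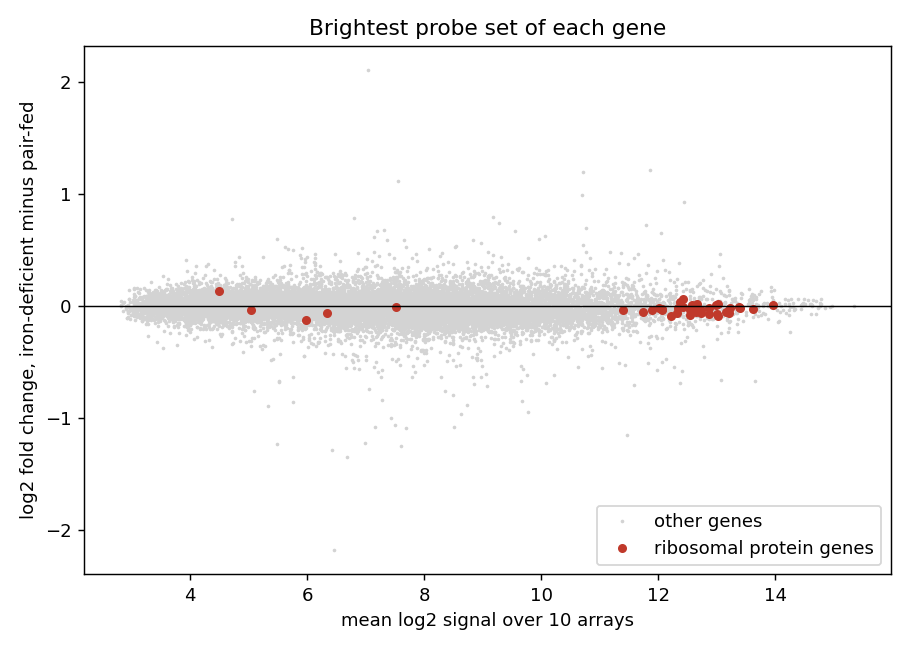
Mean log2 signal over the 10 arrays (x axis) against the log2 fold change of the iron-deficient over the pair-fed group (y axis) for 14217 genes, 1 point per gene, with the 43 ribosomal protein genes in red. The red points lie between -0.12 and 0.13, 38 of them at signals over 10.

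The large subunit holds the peptidyl transferase centre and the exit tunnel. Of its 29 genes covered here, 6 had a higher and 23 a lower mean in the iron-deficient group, with a median log2 fold change of -0.03. Rplp0, the base of the stalk that recruits elongation factors and a common reference gene, gave 12.46, 12.58, 12.64, 12.72 and 12.59 in iron-deficient replicates 1 to 5 and 12.57, 12.69, 12.53, 12.66 and 12.67 in pair-fed replicates 1 to 5. The groups overlapped, at 12.60 ± 0.09 (SD, n = 5) and 12.62 ± 0.07 (SD, n = 5), a log2 fold change of -0.03 (95% interval -0.17 to 0.11).

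Rpl5 and Rpl11 carry the 5S rRNA into the ribosome and, when free, bind Mdm2 and so stabilise p53. Rpl5 gave 12.94, 13.04, 13.04, 12.96 and 12.96 in the iron-deficient group and 12.97, 13.06, 12.93, 13.01 and 12.92 in the pair-fed group. It had the narrowest 95% interval of the 43 genes, -0.11 to 0.13 around 0.01. Rpl11 gave 12.60, 12.77, 12.67, 12.73 and 12.80 against 12.73, 12.86, 12.61, 12.74 and 12.80, a log2 fold change of -0.03 (95% interval -0.18 to 0.11). For neither gene did the groups separate.

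Rpl7 and Rpl22 had the largest differences among the bright members, with the iron-deficient group lower. Rpl7, which lies near the 5S rRNA, gave 12.83, 13.09, 13.03, 13.01 and 12.98 in the iron-deficient group and 13.05, 13.17, 13.03, 13.05 and 13.07 in the pair-fed group. Its log2 fold change was -0.09 (SE 0.06, limma adjusted p = 0.816). Rpl22, an RNA-binding protein that ribosomes can do without, gave 11.99, 12.29, 12.22, 12.13 and 12.31 against 12.19, 12.36, 12.20, 12.36 and 12.23, a log2 fold change of -0.08 (limma adjusted p = 0.850). In both genes the lowest value came from iron-deficient replicate 1, and the other iron-deficient rats lay partly among the pair-fed rats. Rpl3, at the peptidyl transferase centre, and Rpl35, near the exit tunnel, had log2 fold changes of -0.07 (limma adjusted p = 0.849) and -0.06 (limma adjusted p = 0.917).

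On the other side, Rpl28 and Rpl27 had the largest positive differences. Rpl28, a protein of eukaryotic ribosomes without a bacterial counterpart, gave 4.51, 4.43, 4.74, 4.65 and 4.43 in the iron-deficient group and 4.46, 4.50, 4.40, 4.28 and 4.43 in the pair-fed group. These are dim signals, and replicates 1, 3 and 4 of the iron-deficient group lay above every pair-fed rat while the other two lay among them. The log2 fold change was 0.13 (95% interval -0.03 to 0.30, limma adjusted p = 0.768). Rpl27 gave 12.26, 12.55, 12.61, 12.35 and 12.49 against 12.36, 12.38, 12.41, 12.53 and 12.25, a log2 fold change of 0.07 (95% interval -0.11 to 0.24, limma adjusted p = 0.901). Rpl24, Rpl18 and Rpl41 followed with 0.04, 0.02 and 0.02.

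Rpl13a is also part of the complex that silences the translation of ceruloplasmin, a ferroxidase. Its signals were 11.84, 12.20, 11.95, 11.99 and 12.09 in the iron-deficient group and 12.01, 12.07, 11.98, 12.07 and 12.00 in the pair-fed group, so that the pair-fed values lay inside the range of the iron-deficient ones. Its log2 fold change was -0.01 (95% interval -0.17 to 0.14). Rpl7a and Rpl37a, 2 of the 3 brightest probe sets of these genes, had means of 13.62 and 13.41 and log2 fold changes of -0.03 and -0.02. Rpl30, at a mean of 5.03, had -0.03.

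The small subunit binds mRNA and decodes it. Of its 14 genes covered here, 2 had a higher and 12 a lower mean in the iron-deficient group, with a median log2 fold change of -0.03. Rps6, the substrate of S6 kinase downstream of mTOR, gave 13.09, 13.26, 13.21, 13.28 and 13.28 in the iron-deficient group and 13.25, 13.32, 13.20, 13.22 and 13.21 in the pair-fed group. Apart from iron-deficient replicate 1, its values lay within 13.20 to 13.32 in both groups, and the log2 fold change was -0.02 (95% interval -0.15 to 0.11). These are mRNA signals and say nothing of the phosphorylation of the protein.

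Rps9, a protein of the mRNA entry side that assembles early, gave 12.20, 12.66, 12.56, 12.55 and 12.57 in the iron-deficient group and 12.58, 12.64, 12.55, 12.62 and 12.55 in the pair-fed group. The difference of -0.08 on the log2 scale (SE 0.08, limma adjusted p = 0.874) came to -0.00 when iron-deficient replicate 1 was left out. Rpsa, known also as the laminin receptor, gave 12.00, 12.40, 12.31, 12.28 and 12.50 against 12.31, 12.33, 12.37, 12.33 and 12.44, a log2 fold change of -0.06 that was 0.02 without that rat. Rps3, which lines the mRNA entry channel and has a role in DNA repair, gave 12.37, 12.70, 12.65, 12.61 and 12.79 against 12.65, 12.71, 12.60, 12.69 and 12.70, a log2 fold change of -0.05 that was 0.01 without it. In each of these 3 genes iron-deficient replicate 1 was the lowest of the 10 rats, and the other 4 rats of its group overlapped with the controls. Rps29, a zinc-binding protein and the brightest probe set at a mean of 13.96, had a log2 fold change of 0.01 (95% interval -0.14 to 0.16).

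Rps13 and Rps4y2 varied most between rats of 1 group. Rps13 gave 5.97, 5.87, 5.77, 6.07 and 5.90 in the iron-deficient group and 5.98, 5.83, 6.12, 5.90 and 6.38 in the pair-fed group, where replicate 5 stood above all others. Its log2 fold change was -0.12 (95% interval -0.34 to 0.09, limma adjusted p = 0.833). Rps4y2, a copy of the gene for protein S4, gave 7.40, 7.52, 7.49, 7.97 and 7.18 against 7.30, 7.63, 7.29, 7.37 and 7.99, with 1 high rat in each group and a log2 fold change of -0.00 (95% interval -0.35 to 0.34).

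More genes had a lower than a higher mean in the iron-deficient group, but that count turned on 1 array. The mean was higher in the iron-deficient group for 8 of the 43 genes, against 47.5% of all genes and 43.2% of the 1952 other genes with a mean signal over 10, and the median log2 fold change was -0.03 against -0.01 over all genes. Without iron-deficient replicate 1, the mean was higher for 31 of the 43 genes and the median was 0.02, while over all genes the share with a higher mean was 47.6% and the median -0.01. Of the bright members, 7 of 38 had a higher mean with all arrays and 28 of 38 without that array.

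Iron-deficient replicate 1 had the lowest of the 10 signals for 35 of the 43 genes, 34 of them among the 38 bright members. All 38 bright members lay below their own 10-array mean there. Of the other genes with signals over 10, 24.0% had their lowest value on this array, though their median signal was 10.96 against 12.66 for the bright members. The share was 69.9% for 73 mitochondrial ribosomal protein genes and 52.8% for 36 proteasome subunit genes. The median deviation of the bright members from their 10-array means was -0.17, 0.05, -0.01, 0.00 and 0.08 in iron-deficient replicates 1 to 5 and -0.03, 0.08, -0.05, 0.05 and 0.01 in pair-fed replicates 1 to 5. Apart from the first of these, the values of both groups overlapped. At the upper end, pair-fed replicate 2 held the highest signal for 16 of the 43 genes and iron-deficient replicate 5 for 11.

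**Figure D3:**
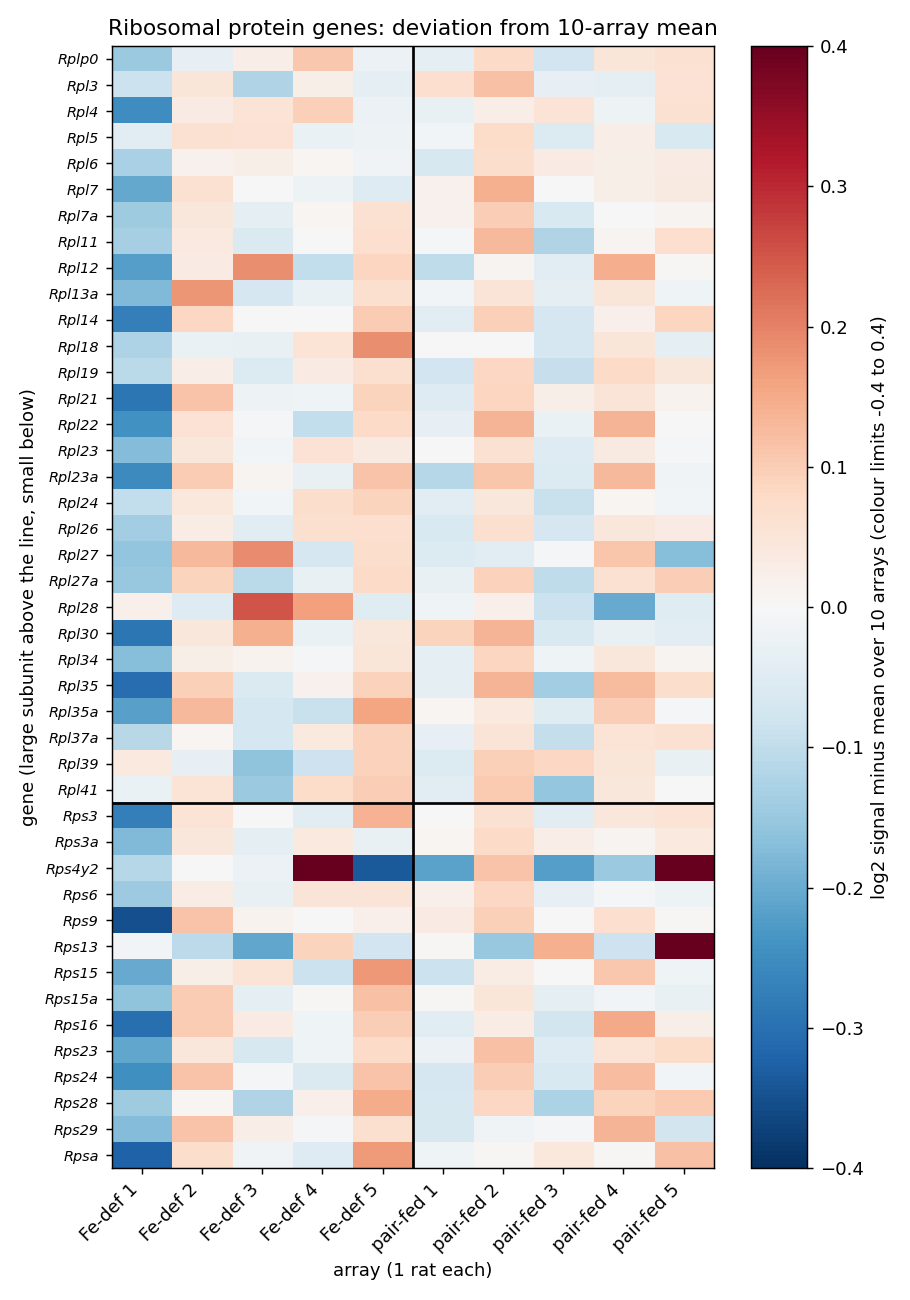
Heat map of the log2 signal of each ribosomal protein gene minus its mean over the 10 arrays (colour scale limited to -0.4 to 0.4), with genes in rows (large subunit above the line, small below) and arrays in columns (5 iron-deficient left of the line, 5 pair-fed right). The column of iron-deficient replicate 1 is blue for nearly all genes and is the lowest value in 35 of 43 rows, while Rps4y2 and Rps13, with signals under 10, do not follow the bright ones.

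The bright members moved together from rat to rat. Subtracting their median deviation on each array removed 64.5% of their variance over the 10 arrays, and 40.8% over the 9 arrays without iron-deficient replicate 1. As the median came from the members themselves, these shares are descriptions. The common movement was small: the highest and lowest of the 10 signals of a bright member were 0.31 apart at the median (range over the members 0.13 to 0.49). The SD within the group was larger in the iron-deficient than in the pair-fed group for 38 of the 43 genes, with medians of 0.113 and 0.068, and for 65.3% of all genes. This count also rested on 1 array: without iron-deficient replicate 1 the SD was larger in the iron-deficient group for 20 of the 43 genes, with a median of 0.070 against 0.068 in the pair-fed group, and for 56.1% of all genes.

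Other gene groups stood low on the same array. The median deviation in iron-deficient replicate 1 was -0.15 for 12 measured genes of translation elongation and other TOP mRNAs, -0.20 for 73 mitochondrial ribosomal protein genes and -0.17 for 36 proteasome subunit genes, against -0.00 for the other genes with signals over 10 and -0.01 for all genes. Low values on this array were thus shared by these groups at the median, but not by every gene or list. Of the 12 elongation and TOP genes, 7 had their lowest signal there and 3 their highest. Among 26 translation initiation factors, 6 were lowest and 10 highest there. For 23 genes of mTOR and related signalling, 1 was lowest and 9 were highest. Of 17 RNA polymerase I and rDNA transcription genes, 8 were lowest and 2 highest there. Of 40 ribosome biogenesis factors, 14 were lowest and 3 highest, and of 6 ribosomal protein paralogs, 2 and 3. For GAPDH, the 3′ control probe set minus the 5′ one, a reading of RNA integrity, came to 0.36 (log2) on this array and -0.05 to 0.11 on the other 9, and for beta-actin it came to 1.74 against 1.08 to 1.33. The methods of the study also report an RNA integrity number for the total RNA of each liver, above the same stated minimum for all. The part of RNA quality in the low signals was not tested.

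**Figure D4:**
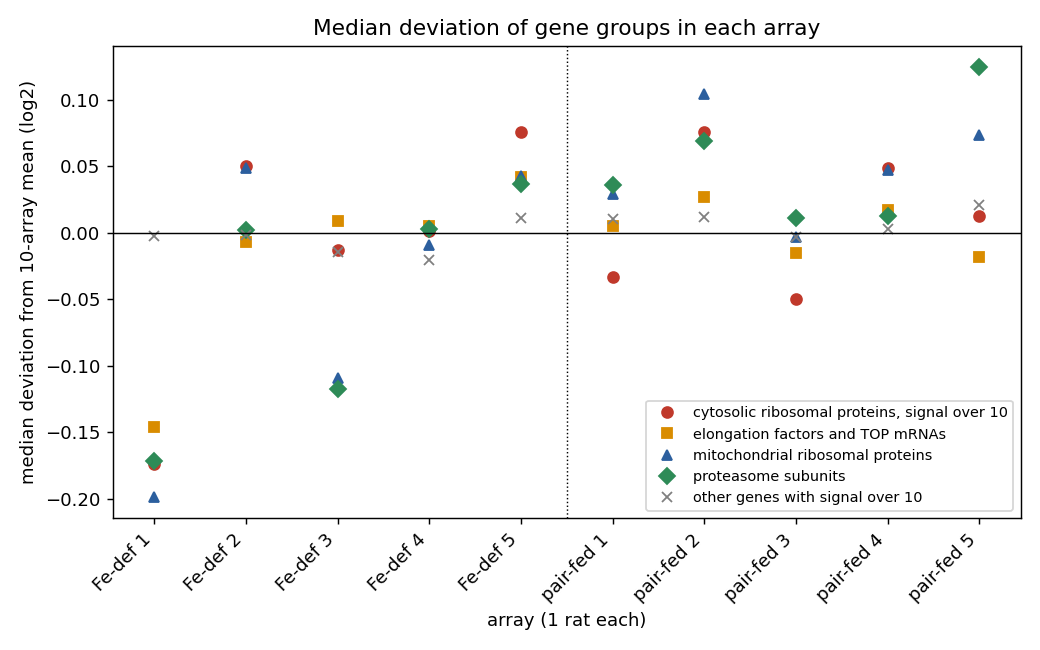
Median deviation from the 10-array mean (y axis, log2) of 5 gene groups on each array (x axis, 5 iron-deficient and 5 pair-fed rats): 38 bright cytosolic ribosomal proteins, 12 elongation factors and TOP mRNAs, 73 mitochondrial ribosomal proteins, 36 proteasome subunits and 1952 other genes with signals over 10. On iron-deficient replicate 1 the first 4 groups lie between -0.20 and -0.15 and the other genes at -0.00.

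For comparison, 2 other large protein complexes were counted in the same way. Of 73 mitochondrial ribosomal protein genes, 4 had a higher and 69 a lower mean in the iron-deficient group (median -0.10), 9 were lower and 0 higher at an unadjusted limma p under 0.05, and 0 were called by rank products or by limma with adjustment. Without iron-deficient replicate 1 their median was -0.06, with 11 higher and 62 lower. The proteasome genes had 6 higher and 30 lower (median -0.12), 10 lower at an unadjusted p under 0.05, and 0 called by either method, with a median of -0.08 without that array. The corresponding count at an unadjusted p was 0 for the cytosolic ribosomal protein genes. Of all genes, 52.5% had a lower mean, and 4.94% were lower and 2.9% higher at that p. The genes lower at that p made up 12.3% of the mitochondrial ribosomal and 27.8% of the proteasome genes. The differences between these groups of genes were not tested.

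Genes with and without a pyrimidine run at the start are set side by side here, and the difference between them was not tested. The median log2 fold change was -0.03 for the 23 genes with a run and -0.03 for the 13 without. A higher mean in the iron-deficient group was found for 3 of the 23 and for 3 of the 13. Among the bright members, iron-deficient replicate 1 was the lowest array for 19 of 20 genes with a run and for 10 of 12 without, with median deviations of -0.19 and -0.14. Rpl34 with its run of 20 bases had a log2 fold change of -0.04 and Rpl26, without a run, -0.01.

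Further probe sets of the same genes gave no call either. There were 6 of them for 5 genes, with log2 fold changes of 0.02 (Rpl14), -0.10 (Rpl3), -0.24 (Rpl7), -0.17 (Rps24), and -0.08 and -0.12 (Rpsa). The one of Rpl7 read 6.79 on iron-deficient replicate 1 and 7.58 to 7.91 on the other 9 arrays (limma adjusted p = 0.806), and that of Rps24 had a limma adjusted p of 0.734. In addition, 36 probe sets are paired with several ribosomal protein genes or their copies and so name no single gene. Of these, 11 had a higher and 25 a lower mean in the iron-deficient group (median -0.02, range -0.23 to 0.09), 0 passed rank products, and 0 had an unadjusted limma p under 0.05 (lowest 0.0804, adjusted 0.743). Iron-deficient replicate 1 was the lowest array for 26 of the 36.

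The genes that build the ribosome and regulate its use were read from 6 lists. Of 40 ribosome biogenesis factors, 1 had a higher and 39 a lower mean in the iron-deficient group (median log2 fold change -0.10, and -0.11 without iron-deficient replicate 1). Rank products and limma with adjustment called 0 of them, and 8 were lower at an unadjusted limma p under 0.05. Over all genes, 52.5% had a lower mean and 4.94% were lower at that p. The smallest p belonged to Gar1, of the ribonucleoprotein that guides pseudouridylation of rRNA, at 8.10 ± 0.11 (SD, n = 5) in the iron-deficient and 8.37 ± 0.11 (SD, n = 5) in the pair-fed rats, with a limma adjusted p of 0.601. Riok2, a kinase of late small subunit maturation, had -0.26, and Nip7, a factor of pre-rRNA processing, had -0.29, each with a limma adjusted p of 0.601.

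RNA polymerase I and rDNA transcription factors numbered 17, of which 3 had a higher and 14 a lower mean (median -0.04), with 0 calls and 3 lower at an unadjusted limma p under 0.05. These were the polymerase subunits Polr1c, Polr1e and Polr1h, with log2 fold changes of -0.20, -0.30 and -0.18. Of 26 initiation factors, 6 were higher and 20 lower (median -0.08), with 0 calls and 4 lower at an unadjusted limma p under 0.05. Among them Eif2b1 and Eif2b3, subunits of the exchange factor that recharges eIF2, had -0.22 and -0.24, and Eif2s1, the alpha subunit of eIF2 itself, had -0.18. The largest difference among the initiation factors was a rise, 0.29 for Eif4g1 (limma adjusted p = 0.718). Without iron-deficient replicate 1, 2 initiation factors were higher and 24 lower (median -0.08). The share of all genes lower at an unadjusted limma p under 0.05 was 4.94%.

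The 12 elongation factors and other TOP mRNAs had 4 higher and 8 lower means (median -0.02), with 0 calls and 0 at an unadjusted limma p under 0.05. Eef1a1, which brings aminoacyl-tRNA to the ribosome, had -0.01 and Eef2, which drives translocation, had 0.12 (limma adjusted p = 0.770). Of 6 ribosomal protein paralogs, 2 were higher and 4 lower (median -0.10), with 0 calls. Rpl39l1, at a signal of 4.03, had 0.23 (limma adjusted p = 0.673) and was the 1 paralog with an unadjusted p under 0.05. Of all genes, 2.9% were higher at that p.

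Signalling to the ribosome was read from 23 genes of mTOR, S6 kinase and the eIF2 alpha kinases. Of these, 13 had a higher and 10 a lower mean (median 0.04), rank products called 2 lower and 0 higher, and limma with adjustment called 0, with 1 lower at an unadjusted p under 0.05. The shares over all genes were 0.788% called lower by rank products and 4.94% lower at an unadjusted p. Eif4ebp3, a repressor of cap-dependent initiation, was called lower at 10.77 ± 0.36 (SD, n = 5) in the iron-deficient and 11.33 ± 0.37 (SD, n = 5) in the pair-fed rats, with a log2 fold change of -0.55 (rank products FDR 0.0120, limma adjusted p = 0.629). Myc, a transcription factor of ribosome genes named here because it was called, had -0.39 (rank products FDR 0.0477), with signals of 7.02 to 8.49 in the iron-deficient and 7.20 to 9.44 in the pair-fed group that overlapped widely (limma adjusted p = 0.881). Mtor, Rps6kb1, which encodes S6 kinase, and Larp1, which binds TOP mRNAs, had 0.07, -0.08 and 0.10. Eif2ak1, the kinase that heme deficiency activates, had -0.00.

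Markers of other cell types were read as well, since immature erythroid cells are rich in ribosomes. Of 9 erythroid markers, 6 were called lower by rank products, against 0.788% of all genes, and 0 higher (median log2 fold change -0.74). Their summed signal was 13.35 to 14.15 in the iron-deficient and 13.92 to 14.62 in the pair-fed group on the log2 scale. Of 9 stellate cell and fibroblast markers, 1 was called higher by rank products (median 0.21), against 0.324% of all genes. Their summed log2 signal was 13.36 on iron-deficient replicate 1, the array on which the ribosomal protein genes were low, 12.75 to 12.99 on the other 4 arrays of that group and 12.55 to 12.80 in the pair-fed group, and 5 of the 9 markers were highest on that array. The sum of the endothelial markers was also highest there, at 12.73 against 12.62 to 12.71 and 12.50 to 12.64, as were 5 of its 8 genes. That of the cholangiocyte markers was lowest there, at 8.61 against 8.70 to 9.09 and 8.84 to 9.23. Rank products called 0 of 12 lymphocyte (median -0.09), 10 Kupffer cell and macrophage (-0.09), 8 sinusoidal endothelial (0.12), 5 cholangiocyte (-0.01) and 13 hepatocyte markers (0.02), and limma with adjustment called 0 of any list. At an unadjusted limma p under 0.05, 3 lymphocyte, 1 cholangiocyte and 8 erythroid markers were lower, against 4.94% of all genes. At that p, 1 endothelial and 3 stellate markers were higher, against 2.9% of all genes. The Kupffer cell and hepatocyte lists had 0 in either direction. Mean signals under 6, which are dim, were found for 11 of 12 lymphocyte, 3 of 5 cholangiocyte and 4 of 9 erythroid markers. The same held for 2 of 9 stellate and 1 of 8 endothelial markers. The part of other cell types in the ribosomal protein signals was not tested.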

How the data were processed

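The deposited log2 values are robust multiarray average (RMA) signals that the authors computed in R and Bioconductor. Array medians were 6.19 to 6.22, so no further normalization was applied; the 57 array controls were dropped, the tests ran on 31042 probe sets (20826 with a single gene), and every array column was used (0 left out). Rank products used 100 permutations within arrays, in Python 3.11.15 with numpy 2.4.6 and pandas 2.3.3, and weighs no gene's spread between rats. limma 3.58.1 (R 4.3.3) was fitted to all probe sets with diet as its term, and p-values were Benjamini-Hochberg adjusted. The rank products code and a separate limma fit with the same term were tested on simulated data. Figures used matplotlib 3.10.9. The replicates are separate rats, and the number of arrays limits the precision. Background percentages are over 14217 genes, 1 probe set each.

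Symbols come from the platform annotation, and RefSeq (GRCr8) gave start windows. Named members were the 5 largest differences in each direction, the 5 smallest p, the 3 most variable, brightest and dimmest, and genes with known extra roles. In each list the 3 genes with the smallest unadjusted limma p were eligible, and not all of these are named. Some list genes outside that rule, such as Eef1a1, Mtor and Eif2ak1, were named as well. The members and lists were chosen with earlier results of these data known. Alternatives were a filter on dim probe sets, another centring, the mean over probe sets, the rank sum, another variance model, a replicate block and each array left out.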

Additional observations from a re-analysis of the deposited data

Results flagged for a closer look

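Of 52 groups of 5 rats examined (the 23 named genes and 3 array readings), 3 had a sample far from the others. For groups not chosen by their values, chance gives about 1 in 20, or 2.6. Many of the named genes were chosen by their differences, p or spread in these data, so 2.6 is not an exact expectation here. Rps9 in iron-deficient replicate 1 read 12.20 against 12.55 to 12.66 in the other 4 rats, a gap of 0.757 of the group's range. Rpl7 in pair-fed replicate 2 read 13.17 against 13.03 to 13.07, a gap of 0.727 of the range. The 3′ minus 5′ log2 difference of beta-actin in iron-deficient replicate 1 was 1.74 against 1.16 to 1.32, a gap of 0.730 of the range. The value that a gap had to exceed for 5 samples was 0.71.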

How the results depend on the processing

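The counts of ribosomal protein genes called by rank products, by limma with and without adjustment, and by groups that do not overlap stayed at 0 under every alternative that was run. The count of genes with a higher mean in the iron-deficient group, 8 of 43, ranged from 5 to 31 when 1 array was left out: 31 without iron-deficient replicate 1, 5 without its replicate 2 or 5, and 13 without pair-fed replicate 2 or 4. Without iron-deficient replicate 1 the median log2 fold change turned from -0.03 to 0.02. Among the bright members alone, chosen as an alternative after seeing the data, the count was 7 of 38 and, without that array, 28. The cause was not tested. With 1 array left out, the log2 fold changes of the 23 named genes lay between -0.18 and 0.16, and 14 of the genes took both signs. Neither the labels nor the methods say whether equal array numbers mark rats paired in feeding. Deviations of same-numbered arrays correlated at -0.04 to 0.09, and 1 of 5 iron-deficient arrays was nearest to its own number. These values cannot decide it, since rats matched in food intake need not have similar liver signals. With the replicate block the calls were 0 by rank products and 0 by limma. No member stands on a probe set marked as cross-matching, so leaving such members out changed nothing.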
